A study of Mus musculus with 6 samples.

Results

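The glucocorticoid receptor, the related mineralocorticoid receptor and 8 of their well-known target genes were followed in cerebellar microglia of Fmr1 knockout mice, a model of fragile X syndrome. The 10 genes, Nr3c1, Nr3c2, Fkbp5, Tsc22d3, Sgk1, Klf9, Txnip, Mt1, Mt2 and Pdk4, were taken by symbol from a table of read counts for 23491 genes, and all 10 had a row. Both groups carried the Fmr1 knockout, and no wild-type group was analysed here. One group of 3 libraries came from mice given saline (sham in the sample titles), and the other group of 3 from mice given poly(I:C), a synthetic double-stranded RNA that mimics viral infection, by intraperitoneal injection. No source used here gives the strain, age, dose or interval after injection. None says either that the libraries of a group came from separate animals, so a p-value covers only the spread among these libraries, and that spread may be technical. Cells were enriched on beads against CD11b, which other myeloid cells also carry.

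The glucocorticoid receptor is a transcription factor that waits in the cytosol in a complex with the chaperone HSP90. When corticosterone, the main glucocorticoid of mice, binds it, the receptor enters the nucleus, where it induces genes through glucocorticoid response elements in DNA and restrains inflammatory genes driven by NF-kB and AP-1. Microglia carry this receptor, and glucocorticoids are known to dampen their inflammatory responses. Hormone levels were not analysed here.

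Libraries held between 33710545 and 34899835 counts, and values are in CPM, read counts scaled to library size, here with the TMM correction for composition. Differences are log2 values of poly(I:C) over saline from the quasi-likelihood test of edgeR. P-values were adjusted by Benjamini-Hochberg over the 14727 genes tested, and a gene was called at an adjusted p under 0.05. Markers of the labelled cell type were abundant, with 11 microglial markers summing to between 31880 and 48000 CPM and P2ry12 and Tmem119 present in every library. Other cell types were also present. Summed neutrophil markers (12 genes, none at 0 in all libraries) were 20900, 2504 and 2472 CPM in saline and 2373, 501.6 and 606.4 CPM in poly(I:C), and summed choroid plexus markers (12 genes, none at 0 in all libraries) were between 4060 and 8657 CPM in saline and between 7785 and 19740 CPM in poly(I:C). Saline library 1 stood apart by its neutrophil markers and poly(I:C) library 1 by its choroid plexus markers, so results that depend on them are also given with both left out. In bulk samples, fewer cells of a type and less RNA per cell cannot be told apart.

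The receptor genes themselves were at like levels in both groups, and their targets had differences of either sign. Fkbp5 and Mt2 were higher in every poly(I:C) library than in any saline library, while Tsc22d3, Sgk1 and Txnip were lower in every poly(I:C) library. None of the 10 genes passed the edgeR test, against 0.957% of all genes tested. At an unadjusted p under 0.05 there were 6 of the 10, against 21.3% of all genes, and the groups did not overlap in 5 of the 10, against 28.4% of all genes. DESeq2 called 5 of the 10 (3 lower and 2 higher), against 8.44% of the genes it tested, and limma-voom with quality weights also called 5 (3 lower and 2 higher), against 19.5%. Both tools called Tsc22d3, Sgk1 and Txnip lower and Mt2 higher. The median log2 difference of the 10 genes was 0.14, against 0.0099 over all genes tested.

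**Figure D1:**
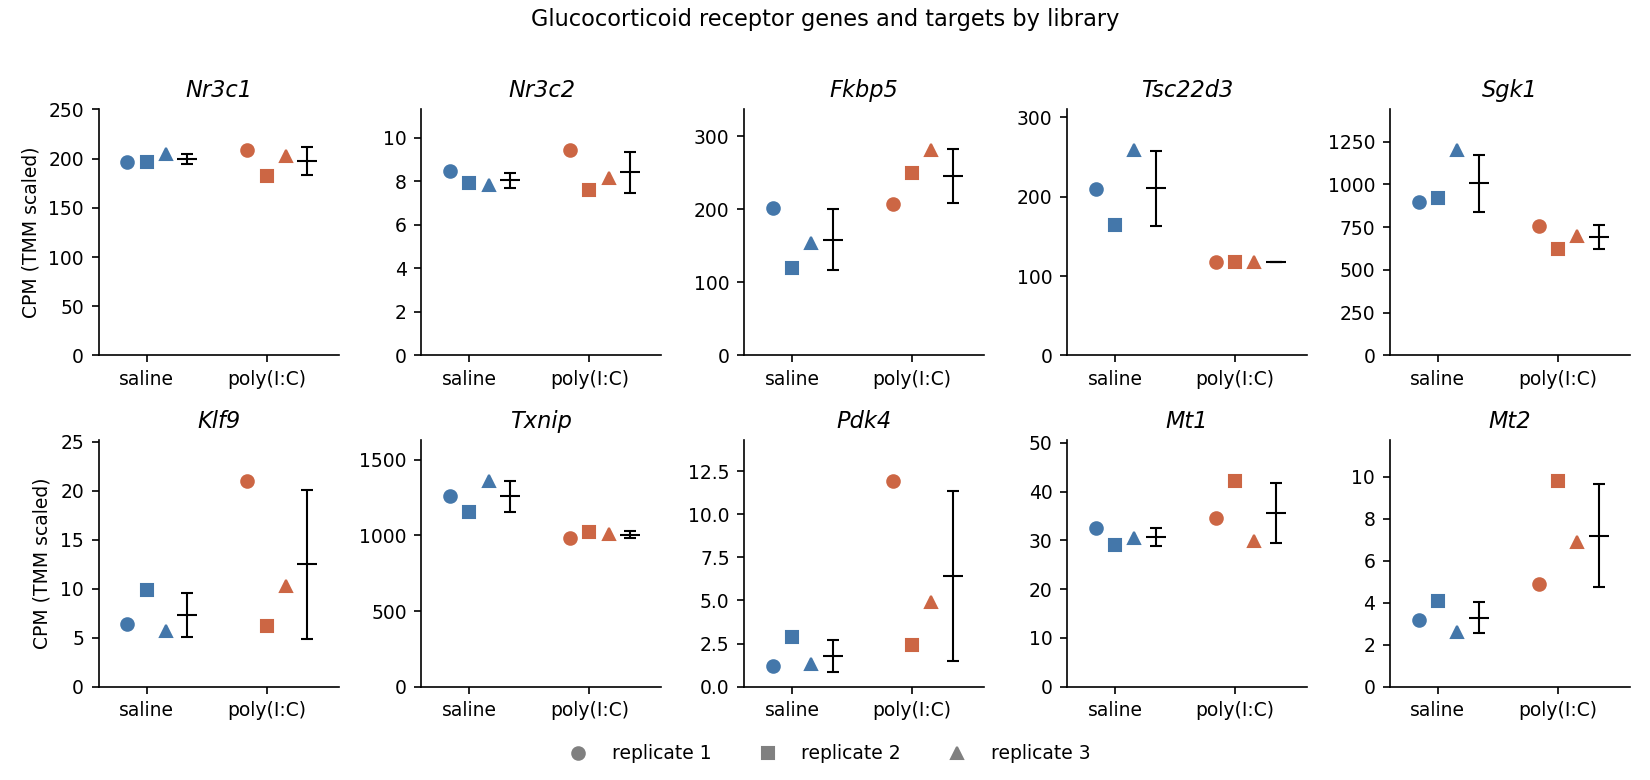
Level of each gene in CPM (y axis, linear from 0) in the saline and poly(I:C) libraries, with marker shape for the replicate number and a bar for the mean ± SD of 3 libraries. The saline and poly(I:C) points do not overlap for Fkbp5, Tsc22d3, Sgk1, Txnip and Mt2, and poly(I:C) library 1 is far above the rest for Klf9 and Pdk4.

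Nr3c1, which encodes the glucocorticoid receptor, was at 197, 197 and 205 CPM in the saline libraries and at 209, 182 and 203 CPM in the poly(I:C) libraries. The groups overlapped, and the whole range over the 6 libraries was 1.15-fold. The log2 difference was −0.01 (SE 0.08, edgeR adjusted p = 0.943), and its sign turned under upper-quartile and total-count scaling, under the stricter filter on low counts, and when saline library 3 or poly(I:C) library 2 was left out.

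Nr3c2 encodes the mineralocorticoid receptor, which binds corticosterone more tightly than the glucocorticoid receptor does. It was at 8.45, 7.91 and 7.81 CPM in saline and at 9.43, 7.62 and 8.16 CPM in poly(I:C), with a log2 difference of 0.06 (SE 0.17, edgeR adjusted p = 0.846) that turned to −0.0067 without poly(I:C) library 1. Per kilobase of exon, Nr3c1 was at 25.9 CPM and Nr3c2 at 1.25 CPM in saline, so the glucocorticoid receptor transcript was the more abundant of the pair. In read counts, each library had between 22.1 and 26.3 Nr3c1 reads for each Nr3c2 read, and the groups overlapped.

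Fkbp5 encodes a co-chaperone of HSP90 that lowers the hormone affinity of the receptor and is itself induced by it, forming a short feedback loop. It was at 202, 119 and 154 CPM in saline and at 207, 249 and 281 CPM in poly(I:C). All 3 poly(I:C) libraries were above all saline libraries, but saline library 1 lay close to poly(I:C) library 1. The means were 158 ± 41.7 and 246 ± 37.2 CPM (SD, n = 3 each), a log2 difference of 0.63 (SE 0.21, edgeR adjusted p = 0.181). With both libraries that stood apart left out, the log2 difference was 0.98 (SE 0.13) and passed the edgeR test (adjusted p = 0.00973), in a fit that called 3.85% of genes. For Fkbp5 these were the highest saline and the lowest poly(I:C) library. Leaving them out therefore widens the difference by construction, and this pass is no separate support.

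Tsc22d3 encodes GILZ, a leucine zipper protein that is induced by glucocorticoids and carries part of their anti-inflammatory action. It was at 210, 164 and 259 CPM in saline and at 118, 118 and 117 CPM in poly(I:C). The saline libraries were spread and all lay above the poly(I:C) libraries. Its log2 difference was −0.84 (SE 0.16), a fold difference of 1.79, and of the 10 genes it had the smallest p, rank 220 of all genes, with an edgeR adjusted p of 0.0806. It was called lower by edgeR without saline library 2, its lowest saline library (log2 −0.9965, adjusted p = 0.0349). It was also called with no filter on low counts (log2 −0.85, edgeR adjusted p = 0.0495). These fits called 0.450% and 0.745% of genes. No other edgeR fit called it. Without saline library 3 the log2 difference was −0.67 (edgeR adjusted p = 0.207). With both libraries that stood apart left out it was −0.82 (edgeR adjusted p = 0.0683). The coefficient of variation of the 3 poly(I:C) values was 0.237%, below the 1.57% that counting error alone gives at a mean of 4070 counts, so their closeness is no measure of their precision.

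Fkbp5 and Tsc22d3, both classical targets, thus had differences of opposite sign. In the saline libraries there were 0.963, 0.726 and 0.595 Fkbp5 reads for each Tsc22d3 read, and in the poly(I:C) libraries 1.75, 2.12 and 2.39. Tsc22d3 had the more reads in each saline library and Fkbp5 in each poly(I:C) library. This ratio needs no scaling between libraries. It was chosen after the values were seen, and the two-sided exact permutation p of 0.1 is the smallest that 3 against 3 libraries can give.

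**Figure D2:**
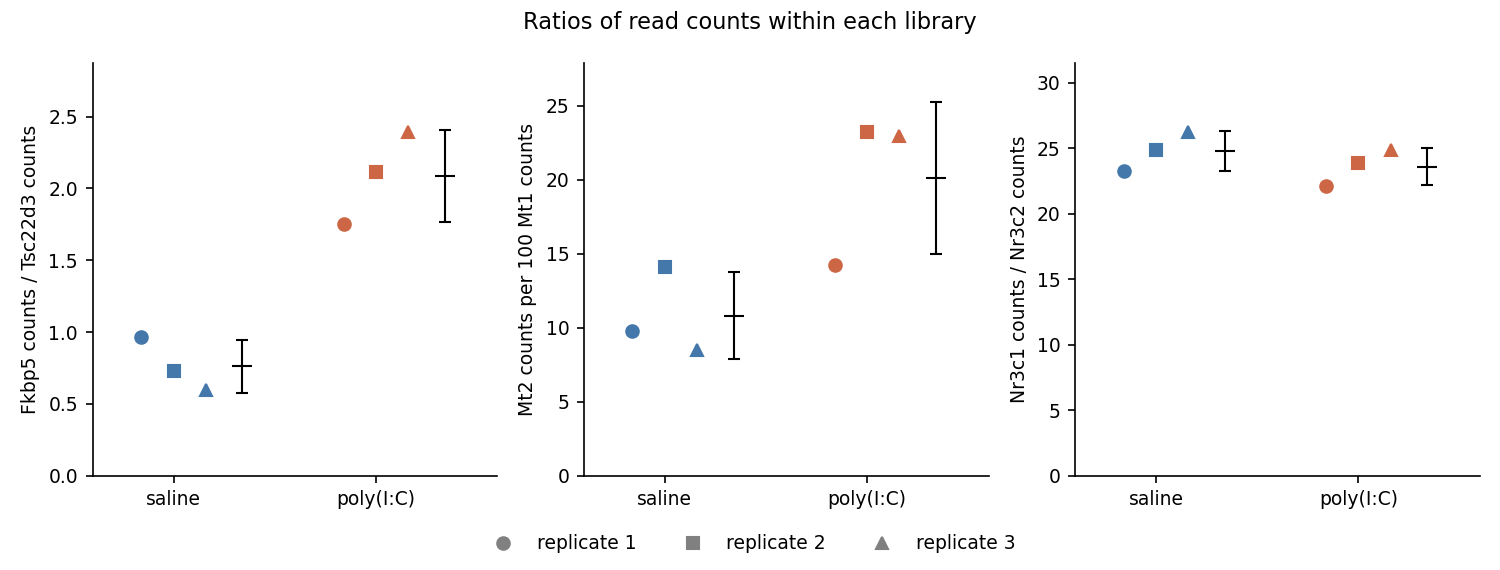
Read-count ratios within each library (y axes, linear from 0) for Fkbp5 over Tsc22d3, Mt2 per 100 Mt1 and Nr3c1 over Nr3c2, with marker shape for the replicate number and bars for the mean ± SD of 3 libraries. The Fkbp5 to Tsc22d3 ratio lies between 0.595 and 0.963 in saline and between 1.75 and 2.39 in poly(I:C), while the receptor ratio overlaps between the groups.

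Sgk1 encodes a serine/threonine kinase that both corticosteroid receptors induce and that regulates ion transport and cell survival. It was at 899, 922 and 1201 CPM in saline and at 759, 621 and 696 CPM in poly(I:C). All poly(I:C) libraries were lower than all saline libraries, with saline library 3 the highest. The log2 difference was −0.54 (SE 0.15, edgeR adjusted p = 0.153). It was −0.40 without saline library 3 and −0.66 with both libraries that stood apart left out, where it passed the edgeR test (adjusted p = 0.0485). For Sgk1 those were the lowest saline and the highest poly(I:C) library, so leaving them out also widens its difference by construction. Its paralog Sgk3 was at 67.9, 52.3 and 50.1 CPM in saline and at 131, 76.2 and 87.8 CPM in poly(I:C), with a log2 difference of 0.79 (SE 0.22, edgeR adjusted p = 0.155). Sgk3 was therefore on the other side of 0 from Sgk1, and neither passed the test.

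Start-site windows, from 250 bases before to 50 after each annotated start, came from RefSeq on GRCm38.p6. They were matched for 9 of the 10 genes (16 windows) and searched on both strands. No Nr3c1 window was searched. Windows on 1 chromosome, that of Nr3c1, were left out for the genes studied but kept in the set of all windows. The full glucocorticoid response element, searched as AGAACA, then 3 bases of any kind, then TGTTCT, which reads the same on both strands, was in 1 of the 16 windows and in 3 of all 32851 windows of the same length (0.00913%). That window belongs to Sgk1, 1 of its 6 annotated starts, at chr10:21993640-21993939 on the plus strand. The simple hexamer AGAACA or its complement TGTTCT was in 4 of the 16 windows, 3 of Sgk1 and 1 of Tsc22d3, against 19% of all windows. Shown are the Sgk1 window with the full element and the 1 of 3 Tsc22d3 windows with a hexamer, chosen for these matches, which are in capitals. The other Sgk1 and Tsc22d3 windows are not shown, and neither is the Txnip window, which held no hexamer. The paired capitals of the Sgk1 window, from base 62 to base 76, are the full element.
Sgk1: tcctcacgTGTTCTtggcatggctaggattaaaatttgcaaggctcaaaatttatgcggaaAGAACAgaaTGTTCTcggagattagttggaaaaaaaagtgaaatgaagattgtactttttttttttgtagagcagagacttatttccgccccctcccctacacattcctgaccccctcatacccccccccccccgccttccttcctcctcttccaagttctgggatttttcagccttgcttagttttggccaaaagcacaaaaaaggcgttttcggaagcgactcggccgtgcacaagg
Tsc22d3 (chrX:140600473-140600772, minus strand): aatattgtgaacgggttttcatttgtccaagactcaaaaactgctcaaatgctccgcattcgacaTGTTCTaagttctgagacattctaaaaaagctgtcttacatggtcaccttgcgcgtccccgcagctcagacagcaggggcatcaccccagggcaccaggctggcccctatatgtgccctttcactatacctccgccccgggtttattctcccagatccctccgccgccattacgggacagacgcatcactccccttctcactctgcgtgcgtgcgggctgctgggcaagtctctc
The Fkbp5 window held no hexamer match, which says only that these letters are not in this window. The interferon-stimulated response element core, searched as GAAA, then 2 bases of any kind, then GAAA, was in 1 of the 16 windows, another start of Sgk1, against 3.44% of all windows. The E-box CACGTG was in 2 (Fkbp5 and the Sgk1 window shown, where it overlaps a hexamer) against 7.15%, and the forkhead site GTAAACA in 2 (Klf9 and Txnip) against 3.65%. The data do not say which start was used, and a match is a description and not a bound site.

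Txnip, which encodes an arrestin-domain protein that binds thioredoxin and limits glucose uptake, was at 1259, 1156 and 1357 CPM in saline and at 982, 1023 and 1010 CPM in poly(I:C). The groups did not overlap, and the poly(I:C) libraries were close together. The log2 difference was small, −0.32 (SE 0.10, edgeR adjusted p = 0.175). Exons of Gm15441 overlap Txnip on the other strand in GENCODE M21, and Gm15441 had between 7 and 26 counts a library. How reads shared by 2 genes were counted is not given, so these counts do not show what the overlap took from Txnip. None of the 10 tested partners of Txnip was called, with a median log2 difference of −0.13. Among them, the arrestin-domain gene Arrdc1 had a log2 difference of −0.19 (SE 0.09) and Mlxip, a glucose-sensing transcription factor gene, of 0.23 (SE 0.13). Txn1, the thioredoxin gene, had a log2 difference of −0.36 (SE 0.45).

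Tsc22d3, Sgk1 and Txnip were lower in the group where summed neutrophil and erythroid markers were also lower without overlap. Erythroid markers (7 genes, none at 0 in all libraries) summed to between 52.9 and 447 CPM in saline and to between 23.8 and 47.0 CPM in poly(I:C). Without saline library 1, the library with the most neutrophil transcripts, the log2 differences were −0.85, −0.63 and −0.33, and the neutrophil sums of the remaining saline libraries, 2504 and 2472 CPM, were still above those of the poly(I:C) libraries. Saline library 3 was the highest library for all 3 genes, and it also had the highest microglial marker sum, 48000 CPM. Its sum of 10 border-associated macrophage markers (none at 0 in all libraries) was the highest as well. That sum was between 1795 and 2451 CPM in saline and between 1316 and 1854 CPM in poly(I:C). The order of libraries for Tsc22d3 differed from it only in that poly(I:C) library 1 lay below saline library 2. That order says little among the poly(I:C) libraries. Their Tsc22d3 values lay between 117 and 118 CPM, and the sums of poly(I:C) libraries 2 and 3 were 1323 and 1316 CPM. The part of marker levels in the differences of the 3 genes was not tested.

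**Figure D3:**
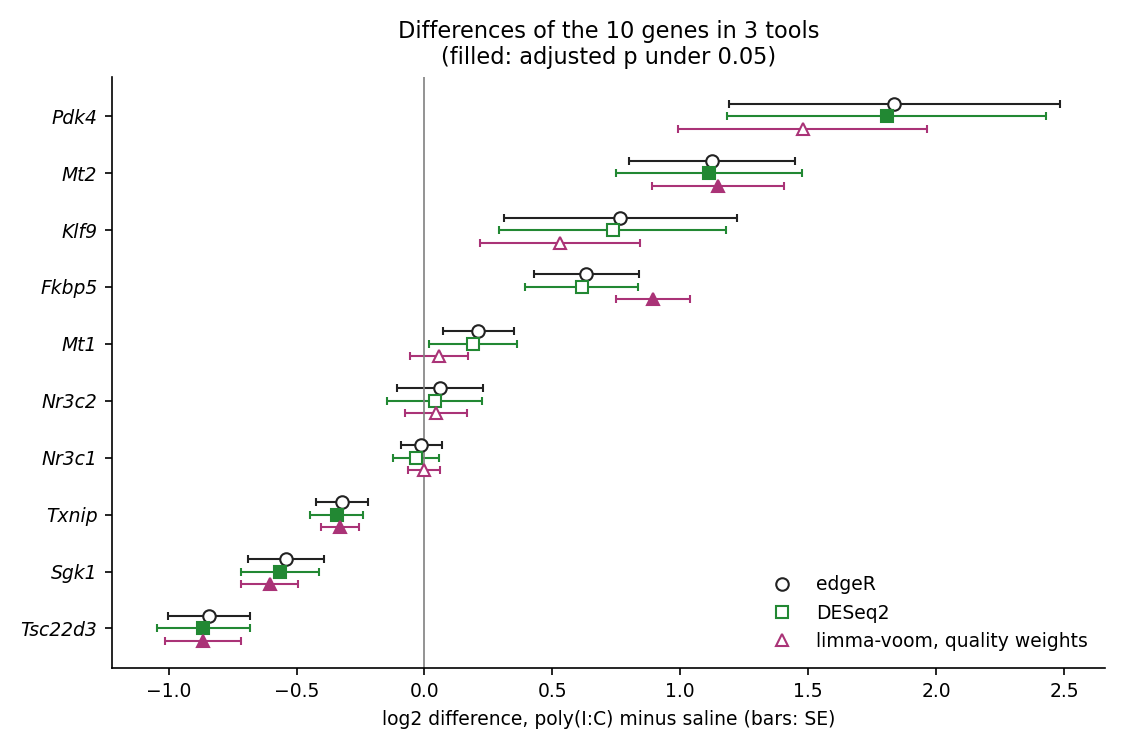
Log2 difference of poly(I:C) over saline (x axis) for each of the 10 genes in edgeR, DESeq2 and limma-voom with quality weights, with bars for the SE and filled markers for an adjusted p under 0.05. Tsc22d3, Sgk1, Txnip and Mt2 are filled in DESeq2 and limma-voom but open in edgeR, Pdk4 is filled in DESeq2 only and Fkbp5 in limma-voom only.

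Klf9 and Pdk4 were the most variable of the 10 genes within the poly(I:C) group. Klf9, a zinc-finger transcription factor gene that is a direct target of the receptor, was at 6.42, 9.90 and 5.69 CPM in saline and at 20.9, 6.21 and 10.3 CPM in poly(I:C). The groups overlapped, and poly(I:C) library 1 was the highest, 20.9 CPM against 10.3 CPM in the next library. The log2 difference of 0.77 (SE 0.46, edgeR adjusted p = 0.346) was 0.19 without poly(I:C) library 1 and 0.10 without it and saline library 1.

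Pdk4 encodes a kinase that switches off the pyruvate dehydrogenase complex and so spares glucose when fat is burned. It was at 1.19, 2.86 and 1.33 CPM in saline and at 11.9, 2.39 and 4.92 CPM in poly(I:C), from 39, 99 and 45 counts and 419, 81 and 171 counts. Poly(I:C) library 2 was below saline library 2. The log2 difference was 1.84 (SE 0.65, edgeR adjusted p = 0.195), 1.05 without poly(I:C) library 1 and 0.82 without it and saline library 1, and DESeq2 called it higher with all libraries (adjusted p = 0.0466). None of the 10 other tested genes of the pyruvate dehydrogenase complex, its kinases and phosphatases was called, and their median log2 difference was 0.14. The other kinase genes Pdk1, Pdk2 and Pdk3 had log2 differences of 0.17 (SE 0.10), −0.14 (SE 0.13) and 0.19 (SE 0.18).

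Both genes were high in the library with the most choroid plexus transcripts. Summed choroid plexus markers were 4157, 8657 and 4060 CPM in saline and 19740, 7785 and 9474 CPM in poly(I:C). Saline libraries 1 and 3, the lowest 2 libraries for these markers, were also the lowest 2 for Pdk4, and poly(I:C) library 2, saline library 2, poly(I:C) library 3 and poly(I:C) library 1 followed in the same rising order in both. For Klf9 the order differed only in that poly(I:C) library 2 lay below saline library 1. Of the 12 choroid plexus markers 11 had a positive log2 difference and none was called, and Ttr, the most abundant, was present in every library. Endothelial and pericyte markers (12 genes, none at 0 in all libraries) were also highest in poly(I:C) library 1, at 646 CPM against 440 CPM in the next library. The part of these cells in the Klf9 and Pdk4 values was not tested.

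**Figure D4:**
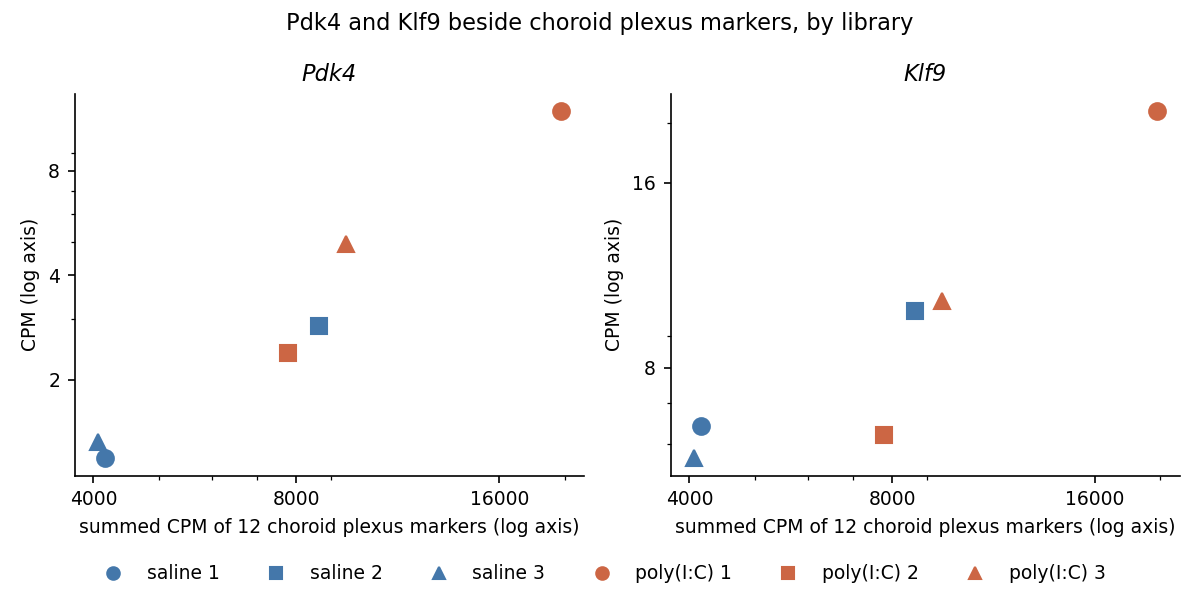
Pdk4 (left) and Klf9 (right) in CPM against the summed CPM of 12 choroid plexus markers, 1 point per library, both axes logarithmic, with color for the group and shape for the replicate. Poly(I:C) library 1 is at the upper right in both panels, at 19740 CPM of choroid plexus markers, and for Pdk4 the saline and poly(I:C) libraries follow 1 rising order apart from the lowest 2.

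The metallothioneins are small cysteine-rich proteins that bind zinc and copper and are induced by glucocorticoids and, through metal response elements, by zinc. Mt2 was at 3.19, 4.10 and 2.59 CPM in saline and at 4.92, 9.78 and 6.87 CPM in poly(I:C), from between 88 and 142 counts and between 173 and 331 counts. The groups did not overlap, with poly(I:C) library 1 the lowest of its group. The log2 difference was 1.12 (SE 0.32, edgeR adjusted p = 0.162). It was 1.34 with both libraries that stood apart left out, where it did not pass (edgeR adjusted p = 0.0734). Without poly(I:C) library 2 it was 0.83 (edgeR adjusted p = 0.169).

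Mt1 was at 32.6, 29.0 and 30.5 CPM in saline and at 34.6, 42.1 and 30.0 CPM in poly(I:C). The groups overlapped, and the log2 difference was 0.21 (SE 0.14, edgeR adjusted p = 0.391). For each 100 Mt1 reads the saline libraries had 9.80, 14.1 and 8.50 Mt2 reads and the poly(I:C) libraries had 14.2, 23.2 and 22.9, so Mt2 was the minor transcript in every library and the ratio of saline library 2 was close to that of poly(I:C) library 1. This ratio was also chosen after its values were seen, and its two-sided exact permutation p of 0.1 is the smallest the design allows. The pair are close paralogs, so the split of reads between them is uncertain, and in GENCODE M21 Mt2 also overlaps Gm45774 on the other strand.

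The start windows of Mt1 and Mt2 are shown for their metal response element cores, TGCACNC or TGCGCNC on either strand, in capitals. There were 3 in the Mt1 window and 4 in the Mt2 window, and 1.97% of all windows held 3 or more. TGCACNC alone was in 12.6% of all windows and TGCGCNC in 15.4%, and in 2 and 5 of the 16 windows of the genes studied.
Mt1 (chr8:94178839-94179138, plus strand): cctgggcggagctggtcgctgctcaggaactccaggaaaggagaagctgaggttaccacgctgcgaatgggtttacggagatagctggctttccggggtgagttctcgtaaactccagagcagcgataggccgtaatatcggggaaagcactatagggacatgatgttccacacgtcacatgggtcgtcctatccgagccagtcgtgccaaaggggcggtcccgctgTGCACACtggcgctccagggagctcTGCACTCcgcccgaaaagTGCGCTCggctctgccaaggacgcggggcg
Mt2 (chr8:94172368-94172667, plus strand): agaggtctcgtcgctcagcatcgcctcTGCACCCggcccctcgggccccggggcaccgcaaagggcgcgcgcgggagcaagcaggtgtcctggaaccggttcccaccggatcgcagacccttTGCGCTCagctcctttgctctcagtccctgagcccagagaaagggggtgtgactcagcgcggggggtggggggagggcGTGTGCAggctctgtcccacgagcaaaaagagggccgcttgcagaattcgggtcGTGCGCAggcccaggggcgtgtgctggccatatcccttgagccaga
Neither window held the glucocorticoid hexamer. Among 7 other tested genes of metal handling none was called, with a median log2 difference of 0.039. The zinc exporter gene Slc30a1, a target of the same metal-responsive factor, was at 22.9, 23.8 and 22.9 CPM in saline and at 54.5, 35.2 and 37.6 CPM in poly(I:C). Its groups did not overlap, and its log2 difference was 0.87 (SE 0.17, edgeR adjusted p = 0.0939). Mtf1, which encodes that factor, had a log2 difference of −0.02 (SE 0.09), and Mt3, the brain metallothionein, of 0.55 (SE 0.37).

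Levels were compared between genes per kilobase of exon, with lengths from GENCODE M21 on GRCm38, which may differ from the authors' annotation. Each length is the union of all annotated exons of a gene, 1246 bases for Mt1 and 588 for Mt2. The union can be longer than any transcript in these cells, so the ranks depend on this measure. In saline, Txnip was the highest at 403 CPM per kilobase, followed by Sgk1 at 205, Tsc22d3 at 48.6, Nr3c1 at 25.9, Mt1 at 24.6, Fkbp5 at 16.7, Mt2 at 5.61, Klf9 at 1.52, Nr3c2 at 1.25 and Pdk4 at 0.510. The ranges over libraries overlapped for Nr3c1 and Mt1 and for Klf9 and Nr3c2. In poly(I:C), Tsc22d3 was at 27.1 and Fkbp5 at 25.9, so that Mt1, Tsc22d3, Fkbp5 and Nr3c1 had overlapping ranges, between 21.8 and 33.8 CPM per kilobase.

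Other genes that glucocorticoids are known to induce mostly had negative log2 differences. Of 24 tested, 0 were called higher and 1 lower, against 0.883% and 0.0747% of all genes. The log2 difference was negative for 16 and positive for 8, against 7207 and 7520 of all 14727 genes tested. The median was −0.18 against 0.0099 over all genes. The called gene was Ddit4, an inhibitor of mTOR signalling, at 184, 168 and 238 CPM in saline and at 41.0, 70.9 and 44.3 CPM in poly(I:C) (log2 −1.92, SE 0.24, edgeR adjusted p = 0.0183). Glul, the glutamine synthetase gene, was at 2142, 2455 and 2677 CPM in saline and at 1450, 1702 and 1610 CPM in poly(I:C) (log2 −0.61, SE 0.13, edgeR adjusted p = 0.112). Cebpd, a transcription factor gene of the acute-phase response, was at 110, 84.5 and 83.9 CPM in saline and at 38.5, 63.1 and 43.9 CPM in poly(I:C) (log2 −0.94, SE 0.21, edgeR adjusted p = 0.115). In all 3 genes the poly(I:C) libraries lay below the saline libraries. Groups did not overlap for 6 of the 24 genes, 4 lower and 2 higher in poly(I:C), against 28.4% of all genes, a share near the background. The other lower gene was Foxo3, a forkhead transcription factor gene (log2 −0.40, SE 0.10). The higher ones were Hif3a, a hypoxia-inducible factor gene (log2 1.33, SE 0.36), and Pik3r1, a regulatory subunit gene of PI3-kinase (log2 0.16, SE 0.08). These 3 were named after their values were seen, and none was called. The clock gene Per1, a target with a well-studied response element, overlapped between groups at 140, 92.7 and 141 CPM and at 84.4, 109 and 79.8 CPM (log2 −0.45, SE 0.19, edgeR adjusted p = 0.241). Among the negative genes, Anxa1 (741 CPM) and Il1r2 (28.3 CPM) were highest in saline library 1, as were summed neutrophil markers. Cd163, also negative, is a border-associated macrophage marker as well. These genes were named after their values were seen, and the part of other cells was not tested.

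**Figure D5:**
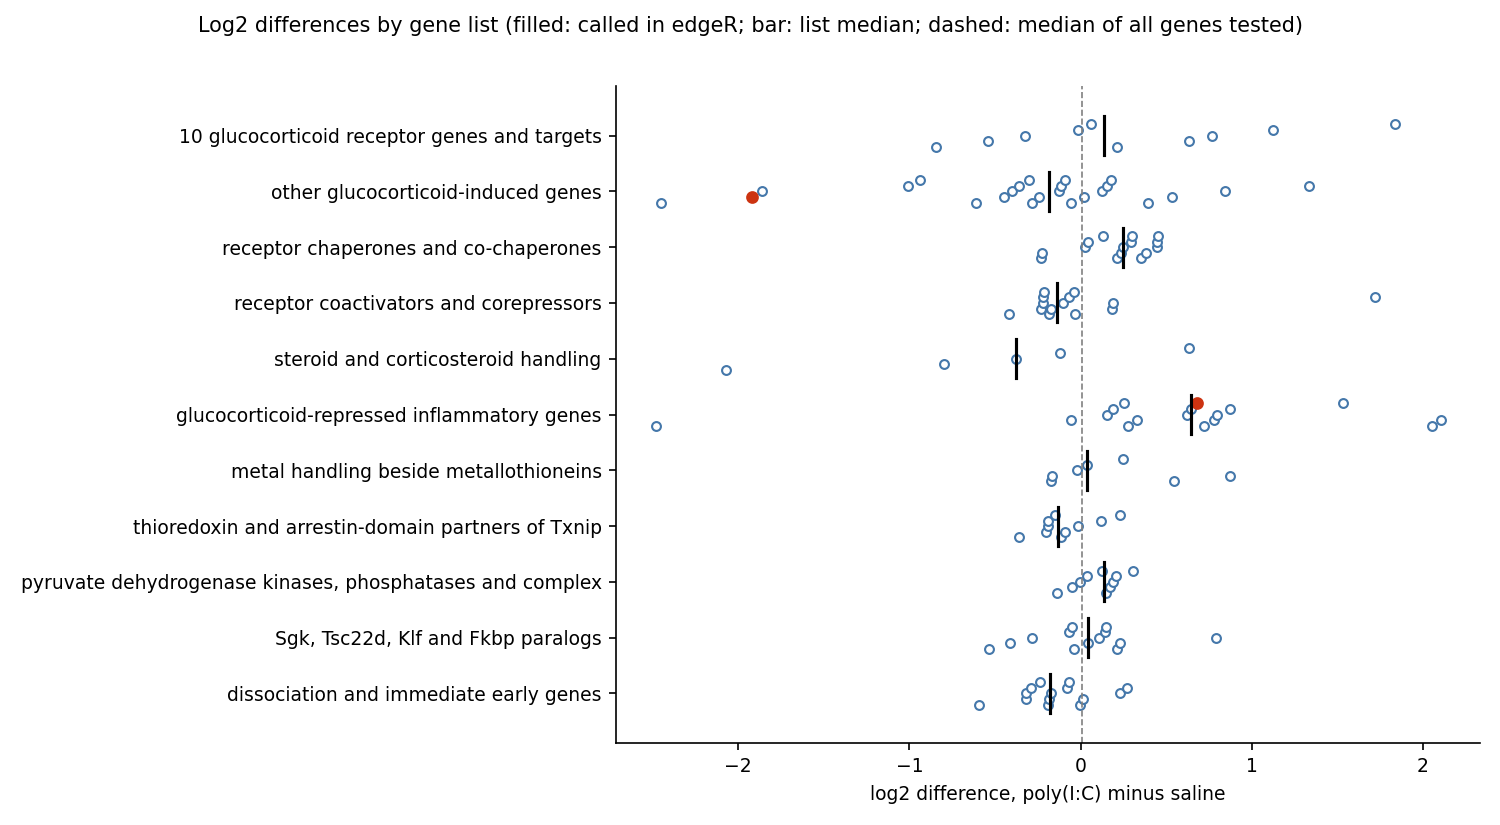
Log2 difference of poly(I:C) over saline (x axis) for each tested gene, by list, with a bar at the list median, filled points for genes called in edgeR and a dashed line at the median of all genes tested. Filled points are Ddit4, at −1.92, and Il18, at 0.68, and the 10 genes studied spread to both sides of 0.

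The proteins that hold and serve the receptor were tested as well. Of 15 chaperones and co-chaperones, 0 were called, against 0.957% of all genes. A positive log2 difference was found for 13 of the 15, against 7520 of all 14727 genes tested. The median was 0.25 against 0.0099 over all genes. Groups did not overlap for 7 of the 15, 6 higher and 1 lower in poly(I:C), against 28.4% of all genes. Ppid, a cyclophilin that competes with Fkbp5 for the receptor complex, was at 48.5, 50.5 and 51.7 CPM in saline and at 81.8, 58.0 and 66.8 CPM in poly(I:C) (log2 0.46, SE 0.13, edgeR adjusted p = 0.162). Stip1, which hands clients from HSP70 to HSP90, had a log2 difference of 0.45 (SE 0.17), and the HSP70-family gene Hspa4 of 0.30 (SE 0.11). Poly(I:C) library 1, which stood apart by its choroid plexus markers, was the highest library for these 3 genes. It was also the highest for every other of the 13 genes with a positive difference. The count of positive genes and the median were not computed without that library. Fkbp4, whose protein acts opposite to Fkbp5 on the receptor, overlapped between groups with a log2 difference of 0.046 (SE 0.09). Fkbp5 was thus the member of this pair whose groups did not overlap.

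Of 14 coactivators and corepressors 0 were called, and the median was −0.14. Carm1, an arginine methyltransferase, had a log2 difference of −0.42 (SE 0.13), and Ncoa2, the coactivator that also serves the repressing action of the receptor, of −0.22 (SE 0.08). Med1, the Mediator subunit that nuclear receptors bind, had one of 0.18 (SE 0.07). In all 3 the groups did not overlap, which was so for 8 of the 14 genes, 6 lower and 2 higher in poly(I:C), against 28.4% of all genes.

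Of 5 tested genes of steroid handling 0 were called. Hsd11b1, whose enzyme regenerates active corticosterone inside cells, was at 24.6, 2.51 and 2.83 CPM in saline and at 4.26, 1.42 and 1.44 CPM in poly(I:C). Saline library 1 was far above the rest, as it was for summed neutrophil markers (20900 CPM), and the groups overlapped (log2 −2.07, SE 0.99, edgeR adjusted p = 0.269). The part of neutrophils in this value was not tested. Hsd11b2, whose enzyme inactivates the hormone, had 2 counts in poly(I:C) library 1 and 0 in the other libraries, where 0 allows up to 0.0890 CPM. Srd5a1, a steroid reductase gene, was between 2.80 and 4.33 CPM in saline and between 1.93 and 2.19 CPM in poly(I:C) (log2 −0.80, SE 0.28, edgeR adjusted p = 0.193). H6pd, which supplies the cofactor of Hsd11b1, had a log2 difference of −0.38 (SE 0.17).

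Inflammatory genes that glucocorticoids are known to repress mostly had positive log2 differences. Of 17 tested, 1 was called higher, Il18, and 0 lower, against 0.883% and 0.0747% of all genes. A positive log2 difference was found for 15 of the 17, against 7520 of all 14727 genes tested. The median was 0.65 against 0.0099 over all genes. Il18, a cytokine gene, was at 33.2, 36.0 and 34.9 CPM in the saline libraries, and at 53.8, 56.6 and 56.0 CPM in the poly(I:C) libraries (log2 0.68, SE 0.08, edgeR adjusted p = 0.0146). Ccl5, a chemokine gene, was at 6.14, 2.89 and 3.12 CPM in saline and at 19.5, 17.8 and 13.02 CPM in poly(I:C) (log2 2.05, SE 0.34, edgeR adjusted p = 0.0552). Cxcl10, an interferon-induced chemokine gene, had a log2 difference of 1.54 (SE 0.33, edgeR adjusted p = 0.113). Groups did not overlap for 6 of the 17 genes, 5 higher and 1 lower in poly(I:C), against 28.4% of all genes. The lower gene was Mmp9, a matrix metalloproteinase gene, named after its values were seen, at 493 CPM in saline library 1 and between 21.3 and 104 CPM in the other libraries. Mmp9 is also among the neutrophil markers summed above, which were highest in saline library 1. The part of neutrophils in its values was not tested. Many genes of this list also respond to interferon and NF-kB.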

How the data were processed

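The authors deposited raw read counts per gene symbol, 1 column per library, neither normalised nor pooled. Per the submitters' processing notes, fastp, HISAT2 and HTSeq were used with GRCm39; the sources used here give no version, setting, annotation or strand mode. Full-length cDNA was amplified by PCR and made into Nextera XT libraries, per the labels' protocols, with no molecular identifiers mentioned, so floors cover counting error only. Nextera XT does not mark strand.

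The test was that of edgeR 4.0.16 under R 4.3.3 (filterByExpr, TMM, quasi-likelihood F test, no covariate) over all 6 libraries. SE is the absolute log2 fold change over the square root of F. Alternatives were scaling by RLE, by upper quartile or by total count, no filter, 5 CPM in 3 libraries, DESeq2 1.42.0, limma-voom (limma 3.58.1) with quality weights, a replicate block, leaving out each library, and leaving out both saline 1 and poly(I:C) 1. Scripts were tested on simulated data. Replicates differed by more than counting noise (chi-square per gene at least 21.2), so none was treated as a duplicate.

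The members and gene lists were chosen with earlier results of these data known. Named genes are the 10 members, up to 3 genes of mean 1 CPM or more per list with the smallest p, called list genes, and direct partners of members. Coordinates are those of RefSeq windows on GRCm38.p6 and not of the authors' build.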

Additional observations from a re-analysis of the deposited data

How the results depend on the processing

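The numbers of genes called moved with the tool and with single libraries. DESeq2 called 577 genes higher, 566 lower and 5 of the 10 members, and limma-voom with quality weights 1268, 1608 and 5, so the share of higher genes among calls went from 92.2% to 50.5% and 44.1%. With no filter 18 genes were lower and 1 member was called. With saline 1 and poly(I:C) 1 both left out there were 355 higher and 214 lower genes and 2 members. Leaving out 1 library gave between 51 and 167 higher genes, between 0 and 20 lower genes and between 0 and 1 members. The cause was not tested.

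With the replicate number as a block there were 171 higher and 89 lower genes and 0 members. Same-numbered libraries deviated together with correlations of 0.172, −0.0628 and 0.273. Saline libraries 1 and 2 both correlated best with poly(I:C) library 1, and saline library 3 with poly(I:C) library 2 (0.382). With 3 libraries a group, these values are too few to decide whether same-numbered libraries were paired.

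Except for the receptor genes, each member kept its sign in every alternative in which it was fitted; the stricter filter removed Pdk4. Nr3c1 turned to 0.037 with upper-quartile scaling, 0.064 with total-count scaling and 0.024 with the stricter filter. With 1 library left out, Nr3c1 ranged from −0.032 to 0.041 and Nr3c2 from −0.0067 to 0.12; the turned values were 0.0066 and 0.041 for Nr3c1 and −0.0067 for Nr3c2. Tsc22d3 ranged from −0.9965 to −0.67, Fkbp5 from 0.46 to 0.98 and Klf9 from 0.10 to 1.08 over all alternatives.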

Other observations

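Over the 6 libraries, the profiles of 10672 genes whose mean CPM was 5 or more were compared with those of Klf9, Mt2 and Fkbp5, the 3 members of widest range among members that met the same limit, which Pdk4 did not, by the root mean square difference of centred log2(CPM + 1) values. Nearest to Fkbp5 was Ctsl, the gene of the lysosomal protease cathepsin L, at 0.0827. Ctsl was at 429, 296 and 319 CPM in saline and at 455, 538 and 620 CPM in poly(I:C) (log2 0.63, SE 0.18, edgeR adjusted p = 0.159). Like Fkbp5 it had saline library 1 close to poly(I:C) library 1. Naalad2 and Gm3325 followed at 0.111 and 0.114.

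Nearest to Mt2 were Uba7, at 0.216, which encodes the activating enzyme for the interferon-induced modifier ISG15, 9530082P21Rik, at 0.242, and Fcgr1, the gene of the high-affinity IgG receptor, at 0.253. Uba7 and Fcgr1 were called higher in edgeR, at log2 differences of 0.91 (adjusted p = 0.0221) and 0.82 (adjusted p = 0.0185). Nearest to Klf9 were Pls3, Myof and Bcar1, at 0.109, 0.128 and 0.134. Pls3, which encodes an actin-bundling protein, was at 48.7 CPM in poly(I:C) library 1 and between 14.4 and 26.4 CPM in the other libraries.

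Immediate early genes and genes known to be induced by tissue dissociation included no called gene among 14 tested (log2 median −0.18). At an unadjusted p under 0.05 there was 1 of the 14, against 21.3% of all genes, and groups did not overlap for 1, against 28.4%. That gene was Jund, at 395, 343 and 388 CPM in saline and at 212, 286 and 246 CPM in poly(I:C) (log2 −0.60, SE 0.13, edgeR adjusted p = 0.111). Of 13 tested paralogs of Sgk1, Tsc22d3, Klf9 and Fkbp5 none was called (log2 median 0.046), 2 were at an unadjusted p under 0.05, against 21.3% of all genes, and Klf2 was at 224, 177 and 271 CPM in saline and at 160, 155 and 149 CPM in poly(I:C) (log2 −0.53, SE 0.15, edgeR adjusted p = 0.161). Anxa1, the gene of a glucocorticoid-induced anti-inflammatory protein, was at 741 CPM in saline library 1 and between 23.1 and 111 CPM in the other libraries, beside the neutrophil marker sums given above, and was chosen after its values were seen.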
